A study of Mus musculus with 6 samples.

Results

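The neurotrophins, the cytokine genes Cntf and Lif and their receptors were examined in cultured astrocytes in which the chromatin remodeller gene Chd7 was targeted. The set was defined by 9 gene symbols, namely the ligands Bdnf, Ntf3, Cntf and Lif and the receptors Ntrk2, Ntrk3, Ngfr, Lifr and Il6st. Its probes were those in the deposited value table whose platform symbol was on that list, a rule that used no measured value. Of the 9 genes, 7 were represented, with 1 probe each, among 23473 probes that name 19321 genes. No probe was named for Ntf3 or Cntf, which were not analysed here. All 7 probes passed the filter on dim signal, as did 20540 probes of the whole array.

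The cells were C57BL/6J cortical astrocytes of newborn (P0) mice, all homozygous for the floxed Chd7 allele, whose marked segment Cre recombinase cuts out. The Cre group (3 arrays, labelled as Chd7 knockdown) received a Cre lentivirus and the control group (3 arrays) a control lentivirus, so that Cre itself was present only where Chd7 was targeted and the 2 effects cannot be told apart. Both groups were kept with 10% serum, FGF2, EGF and B-27 and were harvested 3 days after infection. Single-colour arrays were used, 1 for each RNA sample. Whether the replicates are independent cultures or animals is not in the labels. A p-value here therefore sets a difference only against the scatter of these 6 samples, and that scatter may be technical.

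Neurotrophins are secreted as precursors and act through Trk receptor tyrosine kinases, each of which prefers certain ligands, and through the low-affinity receptor p75, which binds all of them. CNTF and LIF belong to the interleukin-6 cytokine family. Their receptor complexes share the chain gp130 and the LIF receptor chain, and they signal through Jak kinases and the transcription factor Stat3. In the brain, astrocytes carry mostly a truncated form of the BDNF receptor TrkB that lacks the kinase, and LIF and CNTF are known for driving astrocyte differentiation and reactivity.

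Between 82.8 and 87% of probes on Cre arrays and between 87.4 and 90.7% on control arrays lay above background, set 2 SD over the average blank spot. The number of arrays limits the precision. The brighter Chd7 probe, M300016343, read 8, 7 and 8 in the authors' processed values in Cre cultures, against 42, 89 and 46 in control cultures. Its normalised log2 difference was -1.13 (SE 0.16, limma adjusted p = 0.405), and the dimmer probe, M400002483, stood at -0.11 (SE 0.06). In the authors' values M400002483 read 9, 6 and 11 in Cre cultures, against 11, 13 and 14 in control cultures. The M300016343 value depended on the background treatment: plain subtraction gave -2.71, offset 16 gave -1.83 and the local background column gave -0.52. All 14 of the astrocyte markers examined were measured. The brightest 3 were the aldolase gene Aldoc, the gap junction gene Gja1 and the glutamate transporter gene Slc1a3. They stood at 0.25 (SE 0.46), 0.13 (SE 0.18) and 0.22 (SE 0.25) log2 units, Cre minus control. Of the 14 markers 13 stood above 0, and Sox9 alone stood below, at -0.05 (SE 0.13). In all, 5 markers, each above 0, had an unadjusted p under 0.05 (35.7%, against 5.84% of all genes), with none past adjustment. Chosen after their values were seen, Aldh1l1 stood at 0.72 (SE 0.17), Hepacam at 0.32 (SE 0.05) and the aquaporin gene Aqp4 at 0.31 (SE 0.06). The astrocyte markers had a summed authors' value of 7036 to 8907 in Cre cultures and 5334 to 9292 in control cultures. Of 14 measured microglia and macrophage markers, 10 stood below 0. At an unadjusted p under 0.05 there were 5 lower and 1 higher (42.9%), and none passed adjustment. The lower ones, chosen after their values were seen, were the complement genes C1qb at -0.71 (SE 0.17), C1qa at -0.67 (SE 0.11) and C1qc at -0.37 (SE 0.10), with Ctss at -0.47 (SE 0.13) and Tyrobp at -0.27 (SE 0.06), and the higher one was Cd68 at 0.48 (SE 0.08). Their summed authors' value was 313 to 419 in Cre cultures and 432 to 500 in control cultures, groups that did not overlap. The sums of the p75 list (5023 to 6631 in Cre cultures and 6753 to 7109 in control cultures) and of the interleukin-6 ligand list (412 to 488 in Cre cultures and 497 to 554 in control cultures), both described below, did not overlap either. In the authors' values the median log2 difference of all probes was -0.155. The unadjusted p was under 0.05 for 4 of 12 neuron markers (33.3%), 3 above 0 and 1 below, and their median difference was 0.02. It was under 0.05 for 0 of 11 oligodendrocyte lineage markers, 0 of 12 fibroblast and mural markers and 1 of 6 endothelial markers. Fewer cells of a type and less RNA per cell cannot be told apart in such samples, and the part of any of these cells in the values below was not tested.

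For none of the 7 genes did the difference between Cre and control cultures pass the test against the spread between arrays. With limma fitted to the whole array, the adjusted p fell under 0.05 for 0 of 7, against 0% of the 20540 probes tested. The unadjusted p was under 0.05 for 0 of 7, against 5.61% of all probes, of which 2.77% were higher and 2.85% lower in Cre cultures. The adjusted p-values lay between 0.936 and 0.999, and the smallest on the whole array was 0.405. Of the 7 probes 6 stood above 0, against 49.6% of all probes, and 1, that of Bdnf, below 0. For Lif, Ntrk2 and Ntrk3 the difference was only 0.01 to 0.03. In the authors' values 3 of 7 stood above 0, but there the median of all probes was -0.155. Lif (-0.14), Ntrk2 (-0.13) and Ntrk3 (-0.12) lay below 0 and above that median. In the main setting the median log2 difference of the 7 probes was 0.03, against -0.001 over all probes. Their median absolute difference was 0.13, against 0.05 over all probes, while their median SE was 0.11, against 0.07 over all probes. No probe of the set reached a 1.5-fold difference, which 0.248% of all probes did. The 95% intervals of the fold, Cre over control, had their lowest bound at 0.6 for Bdnf and their highest at 1.65 for Ngfr.

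**Figure D1:**
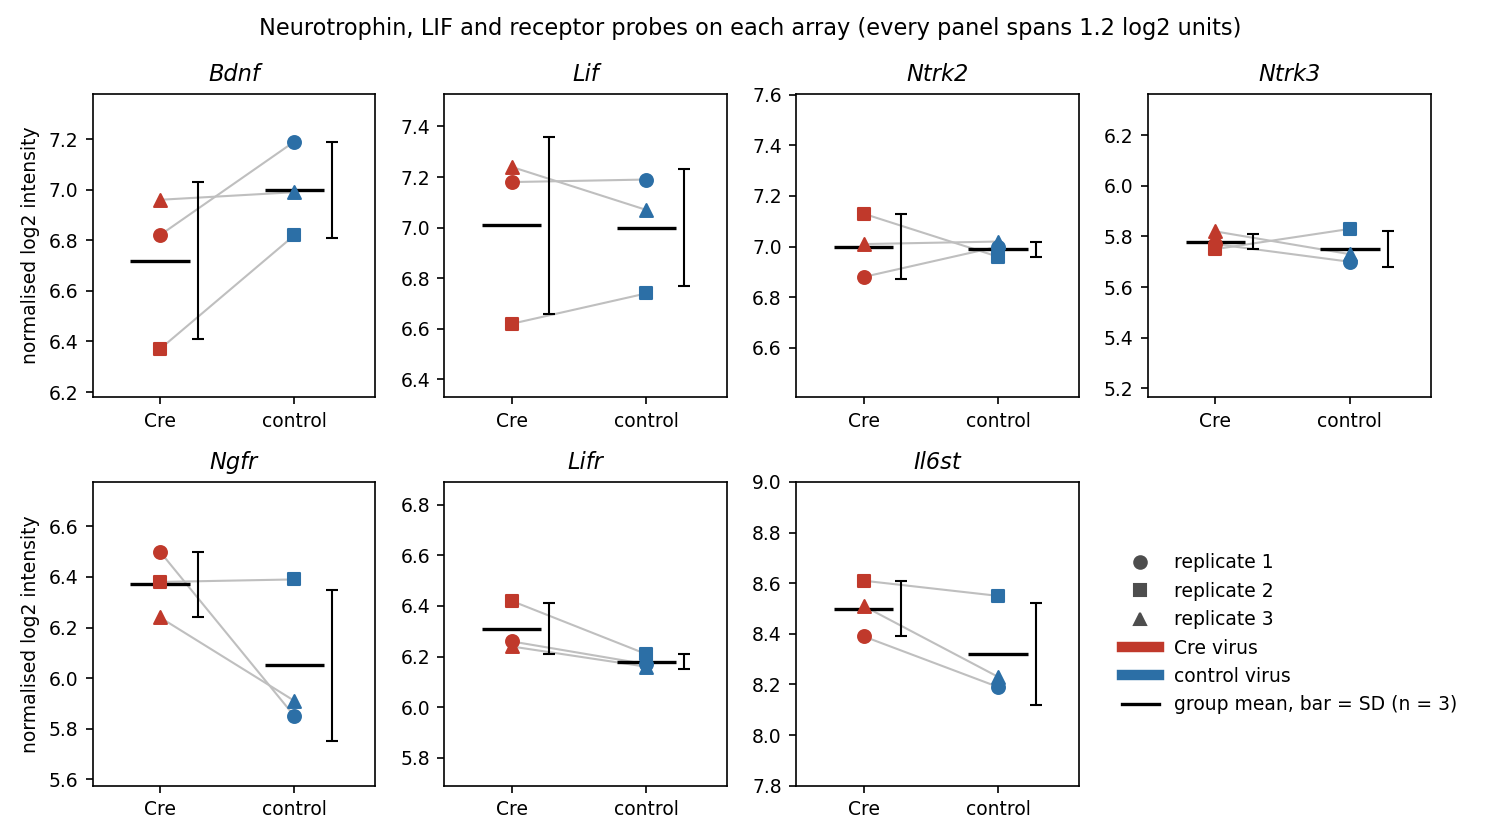
Normalised log2 intensity (vertical axis) of the 7 probes on each Cre array (left, red) and control array (right, blue), with grey lines joining same-numbered replicates, horizontal bars for group means and error bars for the SD (n = 3 each). For Lifr the 3 Cre arrays lie above the 3 control arrays, while for the other 6 genes the groups overlap.

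Among the ligands, Bdnf encodes brain-derived neurotrophic factor, the ligand of TrkB, whose transcription follows neuronal activity. Its probe, M300019278, read 6.82, 6.37 and 6.96 log2 units in Cre replicates 1, 2 and 3, against 7.19, 6.82 and 6.99 in control replicates 1, 2 and 3. Cre replicate 2 was the lowest of all 6 arrays and control replicate 1 the highest, and the groups overlapped. The mean was 6.72 ± 0.31 in Cre cultures and 7.0 ± 0.19 in control cultures (SD, n = 3 each), a difference of -0.28 (SE 0.18, 95% interval -0.73 to 0.16, limma adjusted p = 0.999). The exact permutation p over arrays, two-sided, was 0.2, where 3 arrays against 3 cannot go below 0.1. In the authors' values Bdnf read 38, 17 and 43 in Cre cultures, against 57, 42 and 47 in control cultures, so the Cre mean was 67.1% of the control mean. Those values were shifted over the whole array, with a median log2 difference of -0.155. In the main setting the Bdnf fold, Cre over control, was 0.82. The level was lower on the Cre array in each same-numbered pair, by -0.37, -0.45 and -0.03. Without Cre replicate 2 the difference shrank to -0.11 (SE 0.13, limma adjusted p = 0.999).

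Bdnf is transcribed from several alternative start sites, of which RefSeq's table for GRCm38.p6 held 7, and the sources used here do not say which of them the probe reports. The windows of 250 bases before each start were searched on both strands for the cAMP response element TGACGTCA, the Stat site TTCNNNGAA, the E-box CACGTG and the GC box GGGCGG. No window shown holds more than 1 of these motifs. The Stat site, the kind of site that cytokines of the LIF family act through, was found in 1 of the 16 windows that the table holds for 8 of the 9 genes and in 7.02% of 32851 windows of all genes. That window belongs to the most upstream Bdnf start, on the plus strand at chr2:109674450-109674699. It is shown because Bdnf had the largest difference among the ligands, with the Stat match in capitals. No other Bdnf window is shown, and those held GC boxes or no match.
Bdnf: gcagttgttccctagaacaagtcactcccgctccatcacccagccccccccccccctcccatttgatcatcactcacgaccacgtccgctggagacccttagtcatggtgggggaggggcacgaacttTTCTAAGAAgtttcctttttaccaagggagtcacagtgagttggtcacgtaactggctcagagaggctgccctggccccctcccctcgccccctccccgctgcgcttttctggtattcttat
The cAMP response element was in 0 of the 16 windows and in 1.55% of all windows. The E-box was in 1 of the 16, an Ntf3 window, and in 6.02% of all windows. A match is a description of the letters only, and no binding was measured here.

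Lif encodes leukaemia inhibitory factor. Probe M400001693 read 7.18, 6.62 and 7.24 log2 units in Cre replicates 1, 2 and 3, against 7.19, 6.74 and 7.07 in control replicates 1, 2 and 3. Replicate 2 was the lowest of its group on both sides, and the groups overlapped almost fully. The means were 7.01 ± 0.35 in Cre cultures and 7.0 ± 0.23 in control cultures (SD, n = 3 each), a difference of 0.01 (SE 0.20, 95% interval -0.49 to 0.52, limma adjusted p = 0.999). In the authors' values Lif read 57, 25 and 59 in Cre cultures, against 57, 38 and 52 in control cultures. The interval is wide and spans folds of 0.71 to 1.44. A fit that treated each same-numbered pair as a block gave the same difference, 0.01, with an SE of 0.07. The sign depended on the setting: the local background column gave -0.27, and fits lacking 1 array ranged over -0.12 to 0.21.

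Among the Trk receptors, Ntrk2 encodes TrkB, the receptor of BDNF. Probe M400005106 read 6.88, 7.13 and 7.01 log2 units in Cre replicates 1, 2 and 3, against 7.0, 6.96 and 7.02 in control replicates 1, 2 and 3. The control values lay inside the range of the Cre values. The means were 7.0 ± 0.13 in Cre cultures and 6.99 ± 0.03 in control cultures (SD, n = 3 each), a difference of 0.01 (SE 0.07, 95% interval -0.16 to 0.18, limma adjusted p = 0.999). The interval spans folds of 0.89 to 1.14. Its authors' values were 40, 46 and 46 in Cre cultures, against 46, 49 and 49 in control cultures. The sources used here do not place the probe within the transcript, so the full-length and the truncated receptor cannot be told apart.

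Ntrk3 encodes TrkC, which binds neurotrophin-3. Its probe, M300004565, was the dimmest against its own background. The spot read 75.3, 65.5 and 76.8 intensity units on the Cre arrays, where the background thresholds were 74.3, 65.2 and 73.2, and 66.3, 72.9 and 68.9 on the control arrays, where the thresholds were 67.1, 66.8 and 68.2. It was thus above background on 3 of 3 Cre arrays and 2 of 3 control arrays, in most cases barely. The authors' values were 2, 2 and 4 in Cre cultures, against an empty cell, 4 and 2 in control cultures. The log2 difference of 0.03 (SE 0.05, 95% interval -0.09 to 0.14, limma adjusted p = 0.999) therefore describes a probe near the floor of the array, where differences are compressed.

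The p75 receptor gene Ngfr had the largest difference of the set in the main setting, an order that did not hold throughout. Lifr was largest with the local background column, and Bdnf was largest in size without Cre replicate 1, Cre replicate 3 or control replicate 3. Probe M300000008 read 6.50, 6.38 and 6.24 log2 units in Cre replicates 1, 2 and 3, against 5.85, 6.39 and 5.91 in control replicates 1, 2 and 3. Control replicate 2 lay among the Cre arrays, while the other 2 control arrays lay below all of them. The means were 6.37 ± 0.13 in Cre cultures and 6.05 ± 0.30 in control cultures (SD, n = 3 each), a difference of 0.32 (SE 0.16, 95% interval -0.07 to 0.72, limma adjusted p = 0.96, exact permutation p = 0.3). Among all probes tested, 97.5% had a difference of this size or smaller. Its authors' values were 24, 18 and 15 in Cre cultures, against 5, 22 and 6 in control cultures, so that the Cre mean was 173% of the control mean. The probe is dim and the fold depends on how background is treated: the log2 difference was 1.24 (SE 0.53, limma adjusted p = 0.997) with plain subtraction of the blank mean and 0.08 (SE 0.07) with the local background column.

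A single array set much of the Ngfr value. Without control replicate 2 the difference was 0.49 (SE 0.09, limma adjusted p = 0.474), and without control replicate 1 it was 0.22 (SE 0.17). Control replicate 2 also had the most probes above background of the 6 arrays, 90.7%, and the highest reading of the brighter Chd7 probe, 89 in the authors' values. Whether that array carried other cells was not tested. Of the 10 genes listed as markers of Schwann and olfactory ensheathing cells, which carry p75 in other settings, 5 were measured, with a median log2 difference of 0.04 and 0 of 5 at an unadjusted p under 0.05; their summed authors' value was 19388 to 22988 in Cre cultures and 18704 to 24608 in control cultures. The 250 bases before the Ngfr start, on the minus strand at chr11:95587699-95587948, are shown because Ngfr had the largest difference in the main setting; capitals mark 4 matches to the GC box.
Ngfr: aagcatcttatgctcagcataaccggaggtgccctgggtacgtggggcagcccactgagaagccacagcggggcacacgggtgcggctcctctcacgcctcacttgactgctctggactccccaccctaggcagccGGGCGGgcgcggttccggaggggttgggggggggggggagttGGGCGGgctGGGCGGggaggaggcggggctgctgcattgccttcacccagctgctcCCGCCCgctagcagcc
The GC box was found in 7 of the 16 windows of the set and in 32.7% of all windows.

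**Figure D2:**
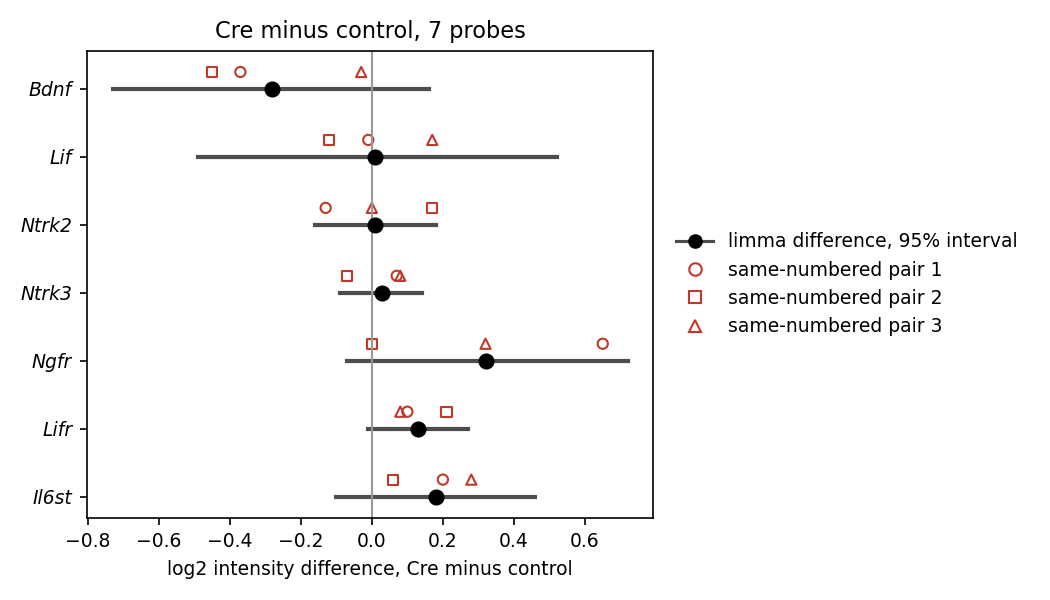
Log2 intensity difference, Cre minus control (horizontal axis), for the 7 genes (rows): filled points are limma's estimates with 95% intervals, and open symbols are the 3 same-numbered pairs. All 7 intervals include 0, and the interval of Lifr, -0.01 to 0.27, comes nearest to leaving it out.

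The probes of both receptor chains shared by LIF and CNTF had means slightly above control in Cre cultures, and neither passed the test. Lifr encodes the LIF receptor chain, which both cytokines use. Probe M300003111 read 6.26, 6.42 and 6.24 log2 units in Cre replicates 1, 2 and 3, against 6.17, 6.21 and 6.16 in control replicates 1, 2 and 3. All Cre arrays lay above all control arrays, the nearest pair being 6.24 in Cre and 6.21 in control cultures. The means were 6.31 ± 0.10 in Cre cultures and 6.18 ± 0.03 in control cultures (SD, n = 3 each), a difference of 0.13 (SE 0.06, 95% interval -0.01 to 0.27, limma adjusted p = 0.936), with an exact permutation p = 0.1, the smallest that 3 arrays against 3 allow. Among the 7 probes it was the only one whose groups did not overlap, 1 of 7, against 10.5% of all probes in either direction and 5.22% with Cre higher. None of the 7 had all Cre arrays below all control arrays, against 5.31% of all probes. In the authors' values Lifr read 16, 19 and 15 in Cre cultures, against 13, 15 and 13 in control cultures, groups that touch at 15. Without Cre replicate 2 the difference was 0.07 (SE 0.04, limma adjusted p = 0.981).

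The more upstream of the 2 Lifr start windows in the table, on the plus strand at chr15:7129322-7129571, is shown because Lifr was the gene whose groups did not overlap. Capitals mark 2 matches to the GC box.
Lifr: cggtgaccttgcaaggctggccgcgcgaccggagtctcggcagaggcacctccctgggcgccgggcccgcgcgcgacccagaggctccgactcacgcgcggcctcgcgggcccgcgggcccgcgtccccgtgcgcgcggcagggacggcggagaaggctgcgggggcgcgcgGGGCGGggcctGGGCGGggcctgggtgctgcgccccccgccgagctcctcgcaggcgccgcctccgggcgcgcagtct

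Il6st encodes gp130, the signal-transducing chain of the interleukin-6 family. Probe M400000510 read 8.39, 8.61 and 8.51 log2 units in Cre replicates 1, 2 and 3, against 8.19, 8.55 and 8.23 in control replicates 1, 2 and 3. Control replicate 2 lay inside the Cre range and the other 2 control arrays lay below it. The means were 8.50 ± 0.11 in Cre cultures and 8.32 ± 0.20 in control cultures (SD, n = 3 each), a difference of 0.18 (SE 0.11, 95% interval -0.10 to 0.46, limma adjusted p = 0.999, exact permutation p = 0.3). In the authors' values, which are scaled differently, the groups were level, with 176 ± 9.02 in Cre cultures and 174 ± 44.4 in control cultures (SD, n = 3 each). The Il6st log2 difference there was 0.04, where the median of all probes was -0.155. Without control replicate 2 the difference was 0.29 (SE 0.07, limma adjusted p = 0.556).

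Within same-numbered pairs, Il6st was higher on the Cre array by 0.20, 0.06 and 0.28 and Lifr by 0.10, 0.21 and 0.08. Ngfr was higher by 0.65 and 0.32 in pairs 1 and 3 and level in pair 2. Thus 2 of the 7 probes were higher in all 3 pairs and 1, Bdnf, was lower in all 3, against 14.6% and 15.5% of all probes. Together 3 of 7 kept 1 direction in all pairs, against 30.1% of all probes. A fit that treated each same-numbered pair as a block left the limma adjusted p at 0.513 for Il6st, 0.532 for Bdnf, 0.536 for Lifr and 0.612 for Ngfr. Il6st and Bdnf, 2 of 7, were under 0.05 before adjustment in that fit, as were 1918 of the 20540 probes.

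**Figure D3:**
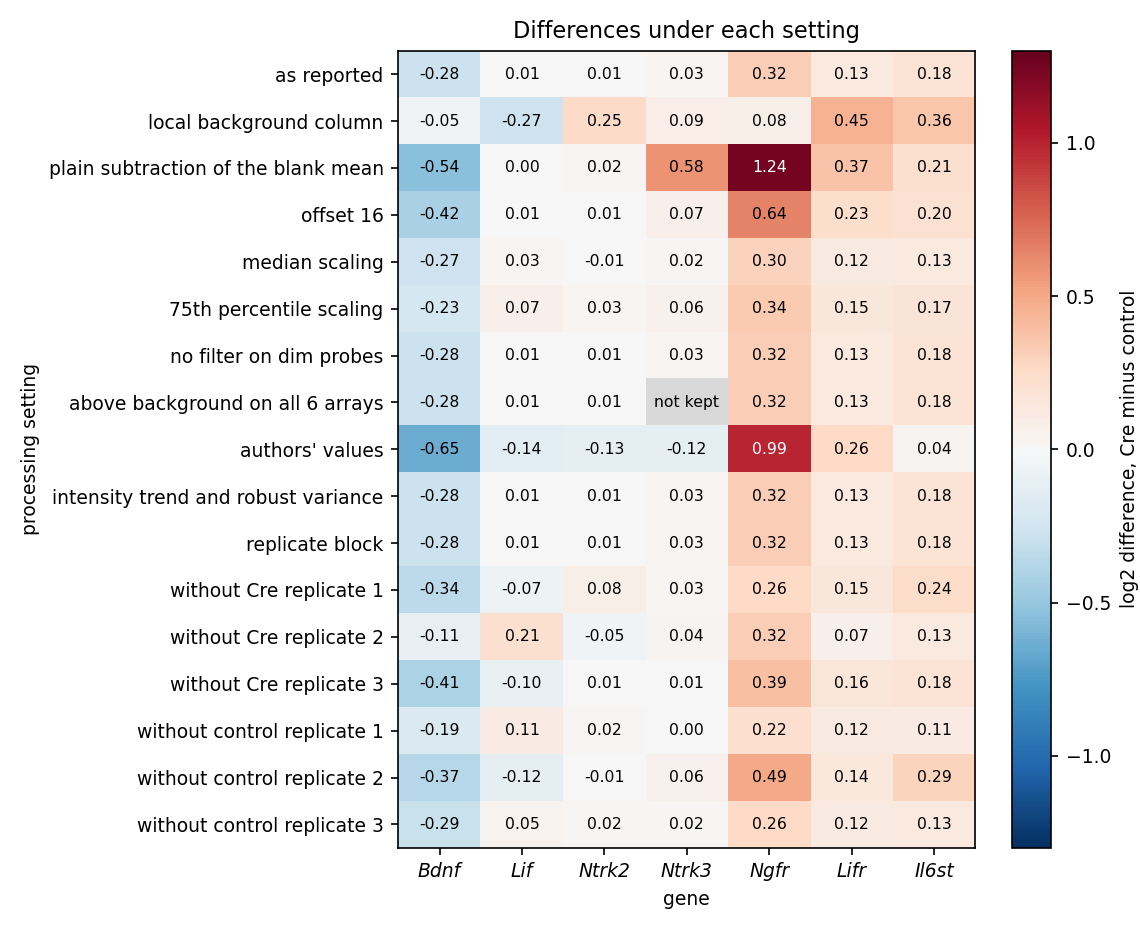
Log2 difference, Cre minus control, of the 7 genes (columns) under each processing setting (rows), with the value printed in each cell and colour running from blue (lower in Cre) to red (higher in Cre). Bdnf stays below 0 and Ngfr, Lifr and Il6st stay above 0 in every row, while Lif, Ntrk2 and Ntrk3 lie on both sides of 0.

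The genes with the most similar profile were sought among 17112 other genes by Pearson correlation of normalised log2 intensity over the 6 arrays. These arrays share their pairing, and with 6 points many genes reach a high value by the breadth of the search. Nearest to Bdnf were Pla2g4f (r = 0.992), Stra6 (r = 0.988) and Hdx (r = 0.987), and 122 genes exceeded 0.9. Nearest to Lifr were Depp1 (r = 0.997), Recql5 (r = 0.983) and C1qtnf7 (r = 0.983), and 146 genes exceeded 0.9.

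The other genes of these pathways were taken from 10 lists of 165 genes in all, of which 142 were measured by their brightest kept probe. None passed (0 of 142, limma adjusted p of 0.405 or more), 67 stood above 0, or near the 49.8% of all genes that did, and 75 below. At an unadjusted p under 0.05 there were 6 higher and 1 lower, or 4.93%, against 5.84% of all 17138 genes measured that way (2.89% higher and 2.95% lower). The medians of the lists lay between -0.04 and 0.04, against 0 over all genes. The share at an unadjusted p under 0.05 was thus close to that of all genes.

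**Figure D4:**
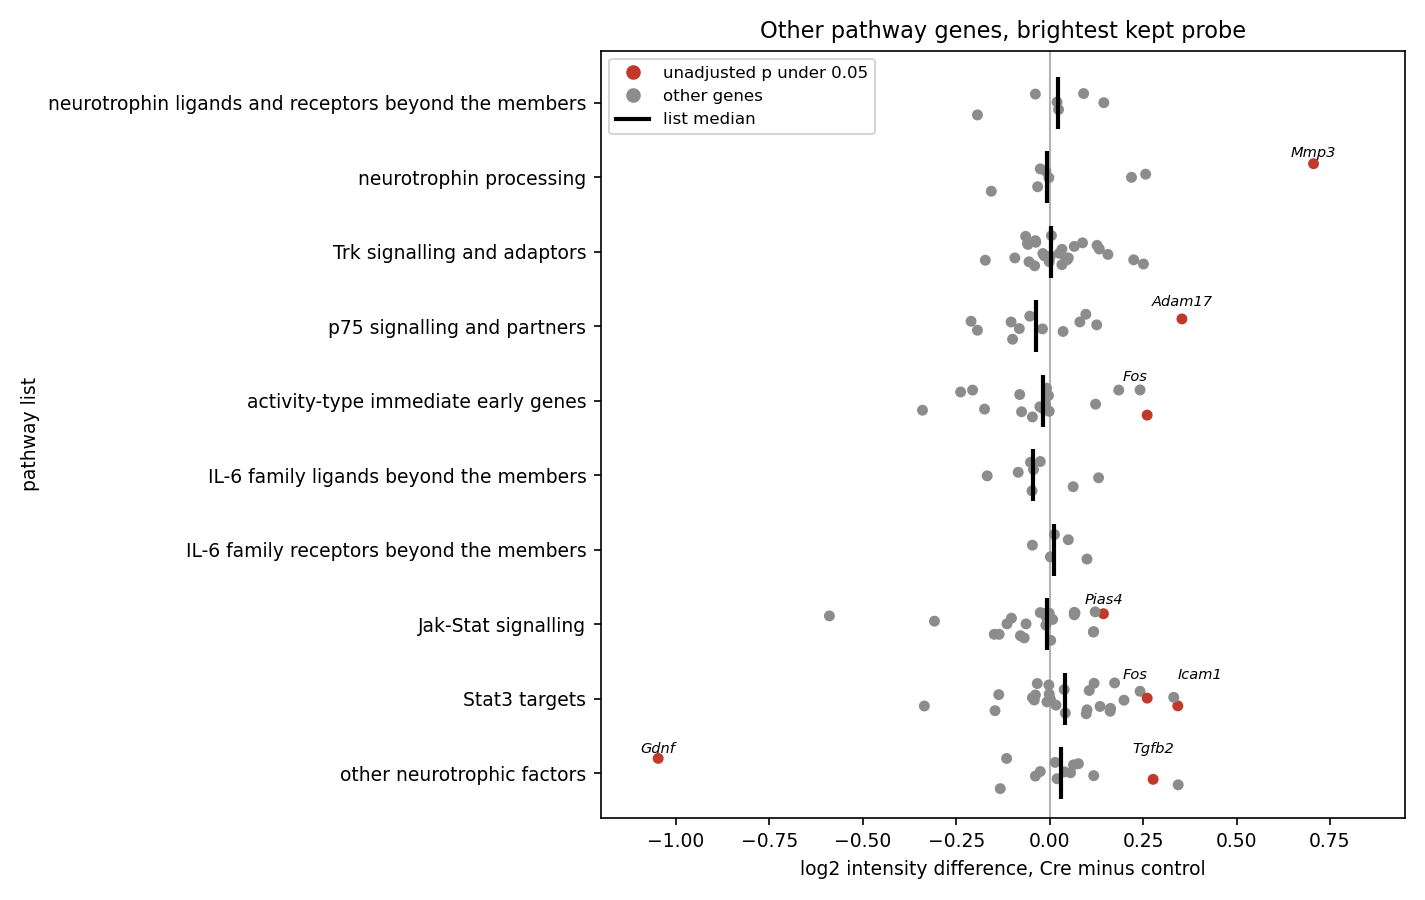
Log2 difference, Cre minus control (horizontal axis), of each measured gene in the 10 pathway lists (rows), with black ticks for list medians and red points for genes at an unadjusted p under 0.05. The medians sit within 0.04 of 0, and Gdnf, at -1.05, lies farthest from it.

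Of the remaining neurotrophin ligands and receptors, 6 were measured, 4 above 0 and 2 below. Ntf5, the gene of neurotrophin-4, another TrkB ligand, averaged 5.96 ± 0.04 log2 units in Cre cultures and 6.00 ± 0.06 in control cultures (SD, n = 3 each). Sort1, which encodes the p75 co-receptor sortilin, stood at -0.19 (SE 0.12). The related sorting receptors Sorl1, Sorcs2 and Sorcs1 stood at 0.15 (SE 0.18), 0.09 (SE 0.12) and 0.02 (SE 0.05).

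Genes of proteases that cut neurotrophin precursors, or of factors that act on them, comprised 8 measured genes, 3 above 0 and 5 below. Mmp3, the gene of the matrix protease stromelysin, averaged 9.04 ± 0.20 log2 units in Cre cultures and 8.34 ± 0.49 in control cultures (SD, n = 3 each). All Cre values (9.27, 8.93 and 8.93) exceeded all control values (8.87, 7.91 and 8.24). The same held for 5.22% of all probes, but Mmp3 was named for its small p, which favours such a separation. The difference of 0.71 (SE 0.26) did not pass (unadjusted p = 0.0366, limma adjusted p = 0.84). With the local background column the Mmp3 difference was only 0.03 (SE 0.43). Plat, the gene of tissue plasminogen activator, stood at 0.26 (SE 0.13) and the convertase gene Pcsk6 at 0.22 (SE 0.17). Below 0 were the plasminogen gene Plg at -0.16 (SE 0.12), Mmp7 at -0.03 (SE 0.05) and the carboxypeptidase gene Cpe at -0.02 (SE 0.19).

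Trk adaptors and kinases were evenly split, with 15 of 28 above 0 and 0 at an unadjusted p under 0.05. Those with the smallest p were the kinase gene Mapk7 at 0.16 (SE 0.07), Pik3ca at 0.13 (SE 0.07) and the phospholipase gene Plcg1 at 0.09 (SE 0.06), and on the other side Sos1 at -0.09 (SE 0.06), the transcription factor gene Creb1 at -0.06 (SE 0.05) and the adaptor gene Gab2 at -0.04 (SE 0.04). The Gab2 probe was above background on 1 of 3 Cre arrays and 3 of 3 control arrays. Among 12 measured p75 partners, 5 were above 0. Adam17, the gene of the protease that sheds the p75 ectodomain, read 8.42, 8.36 and 8.20 log2 units in Cre cultures, against 7.96, 7.77 and 8.18 in control cultures, a difference of 0.35 (SE 0.12, unadjusted p = 0.0255, limma adjusted p = 0.784). Its other probe, M400004884, stood at 0.18 (SE 0.05, limma adjusted p = 0.69). The Nogo receptor gene Rtn4r stood at 0.13 (SE 0.05) and Traf4 at 0.10 (SE 0.06), while Prdm4, Traf6 and Irak1 stood at -0.10 (SE 0.07), -0.05 (SE 0.04) and -0.21 (SE 0.18).

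Immediate early genes, which growth factor signalling induces, had 4 of 17 above 0 and 13 below, with a median of -0.02. The AP-1 gene Fos read 7.85, 7.62 and 7.57 log2 units in Cre cultures, against 7.49, 7.47 and 7.29 in control cultures, a difference of 0.26 (SE 0.09, unadjusted p = 0.0347, limma adjusted p = 0.832). Arc stood at 0.12 (SE 0.05) and Junb at 0.24 (SE 0.15). Fosb, Ier2 and Egr1 stood at -0.08 (SE 0.04), -0.21 (SE 0.17) and -0.34 (SE 0.30).

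Among the other interleukin-6 family ligands, 2 of 8 measured genes stood above 0. Ctf1, the cardiotrophin-1 gene, whose product also uses the LIF receptor chain, stood at 0.13 (SE 0.07), and Il31 at 0.06 (SE 0.10). Clcf1, the gene of a cytokine that acts through the CNTF receptor, read 7.99, 7.94 and 7.99 log2 units in Cre cultures, against 8.03, 8.07 and 8.30 in control cultures. The Clcf1 groups did not overlap and their difference of -0.17 (SE 0.08) did not pass (limma adjusted p = 0.936). With the local background column the Clcf1 difference was 0.28. The groups of Ctf1 and of the receptor gene Il27ra did not overlap either, with Cre higher. Of all probes, 10.5% had groups that did not overlap, in either direction. Clcf1, Ctf1 and Il27ra were named for small p-values in their lists, so that share is not a like comparison. Ctf2 and Il27 stood at -0.08 (SE 0.05) and -0.04 (SE 0.04). Of the receptors, Cntfr, which encodes the CNTF-binding chain, averaged 6.08 ± 0.03 in Cre cultures and 6.13 ± 0.04 in control cultures (SD, n = 3 each), a difference of -0.05 (SE 0.04). Il6ra stood at 0.10 (SE 0.10), Il27ra at 0.05 (SE 0.04) and Il31ra, above background on 1 of 3 Cre and 2 of 3 control arrays, at 0.01 (SE 0.04).

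In the Jak-Stat list, 9 of 24 measured genes stood above 0 and 15 below. Pias4, the gene of a SUMO ligase that restrains Stat activity, read 7.79, 7.82 and 7.83 log2 units in Cre cultures, against 7.74, 7.66 and 7.61 in control cultures, a difference of 0.14 (SE 0.05, unadjusted p = 0.0205, limma adjusted p = 0.759). Stat6 and Socs5 both stood at 0.12 (SE 0.07 and 0.08). The cytokine feedback gene Socs2 averaged 7.64 ± 0.44 in Cre cultures and 8.23 ± 0.35 in control cultures (SD, n = 3 each), a difference of -0.59 (SE 0.28, limma adjusted p = 0.938). The kinase gene Jak1 stood at -0.31 (SE 0.20) and Stat2 at -0.10 (SE 0.06).

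Of the 27 Stat3 targets, which overlap the immediate early list in Fos and Junb, 17 stood above 0 and 10 below, with a median of 0.04. Icam1, the gene of an adhesion molecule, read 8.47, 8.54 and 8.72 log2 units in Cre cultures, against 8.33, 8.06 and 8.31 in control cultures, a difference of 0.34 (SE 0.10, unadjusted p = 0.0159, limma adjusted p = 0.73). Cebpb stood at 0.16 (SE 0.08), Nfil3 at -0.33 (SE 0.15), Myc at -0.14 (SE 0.06) and Batf at -0.05 (SE 0.08).

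Among 14 other neurotrophic factors, 9 stood above 0. The gene of glial cell line-derived neurotrophic factor, Gdnf, read 10.36, 10.40 and 10.23 log2 units in Cre cultures, against 11.31, 11.57 and 11.25 in control cultures (difference -1.05, SE 0.10, limma adjusted p = 0.405). The Gdnf difference was -0.63 with the local background column. Tgfb2 stood at 0.28 (SE 0.09), the prosaposin gene Psap at 0.34 (SE 0.22) and Artn at 0.08 (SE 0.07), and below 0 were Pdgfa at -0.12 (SE 0.08) and Igf1 at -0.13 (SE 0.16).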

How the data were processed

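Total RNA of 6 astrocyte samples was amplified, labelled with Cy5 and hybridised, per the labels' protocols. In the deposited scanner files the authors give each spot a median intensity and an unsubtracted local background intensity, with a fitted line between 3 scanner gains, per the file headers. The authors' value table is a linear intensity. Compared with the scanner data, its values equal the spot intensity minus roughly the blank mean over a constant for each array (1.44 to 1.93). Each array's median is 25, cells near the blanks are empty, and the sources used here do not say how the constants arose.

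Normexp correction relative to the 2736 blank spots (limma 3.58.1, R 4.3.3, offset 50) was followed by log2 and quantile normalisation, and it compresses differences of dim probes. Flagged spots (0 to 9 per array) were dropped. Kept probes exceeded the blank mean by 2 SD on at least 3 of 6 arrays. Groups were fitted with lmFit and eBayes, and two-sided p-values were adjusted by Benjamini-Hochberg over 20540 probes. The fit was tested on simulated data. Symbols came from the platform annotation, updated through Entrez identifiers (0 changed). Named genes were all probes of the set, both Chd7 probes, in each list up to 3 genes per direction with the smallest p, 3 correlated genes for 1 ligand and 1 receptor, and the 3 brightest astrocyte markers; the microglia markers that the same rule names were Cd68 at 0.48, Fcer1g at -0.31 and Aif1 at -0.17. Genes and lists were chosen with earlier results of these data known.

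Same-numbered arrays deviated together from their group means (r = 0.498, 0.425 and 0.436 over probes), and pairs by number were therefore used in the block fit, although no label names a shared litter or day. Alternatives covered background, offset, scaling, filter, the authors' values, the variance model, the replicate block and leaving out each array.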

Additional observations from a re-analysis of the deposited data

How the results depend on the processing

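The count of the 7 genes past an adjusted p of 0.05 was 0 under every alternative run, the replicate block (0) and all fits without 1 array included. The number of probes past it was 0 in each of them except 75th percentile scaling, where it was 7. There 1 pathway gene, Gdnf (-1.08), and 1 Chd7 probe, M300016343 (-1.13), passed, with adjusted p = 0.000165 for both in limma; the prior degrees of freedom of the variance model were 33.7 in that setting and 1.64 in the main one. Before adjustment, 1153 probes were under 0.05 in the main setting, 613 with median scaling, 551 with 75th percentile scaling, 1884 with the authors' values and 1918 with the replicate block. Of the 7 genes, 0 were under 0.05 unadjusted in the main setting, 1 with plain subtraction, 1 with 75th percentile scaling, 2 with the replicate block and 0 to 2 with 1 array left out.

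Bdnf kept its sign in all 16 alternatives (-0.65 to -0.05), as did Ngfr (0.08 to 1.24), Lifr (0.07 to 0.45) and Il6st (0.04 to 0.36). Under the authors' values the median of all probes was shifted by -0.155; Lif (-0.14), Ntrk2 (-0.13), Ntrk3 (-0.12), Sorcs2 (-0.02), Traf4 (-0.0019), Il31 (-0.10), Il6ra (-0.03) and Gja1 (-0.04) turned negative there, each at or above that shift, and Il6st stood at 0.04. With the local background column, Lif turned to -0.27, Chd7 probe M400002483 to 0.04, Sorl1 to -0.09, Sorcs2 to -0.34, Sort1 to 0.50, Plat to -0.11, Creb1 to 0.07, Gab2 to 0.03, Prdm4 to 0.16, Traf6 to 0.03, Fos to -0.17, Clcf1 to 0.28, Pias4 to -0.28, Myc to 0.33, Batf to 0.03, Tgfb2 to -0.19, Pdgfa to 0.13, Igf1 to 0.07, Gja1 to -0.50 and Fcer1g to 0.18. With median scaling Ntrk2 stood at -0.01, and with 75th percentile scaling Ntf5 and Batf at 0.0037 and Mmp7 at 0.01. With 1 array left out, ranges that crossed 0 were -0.12 to 0.21 for Lif, -0.05 to 0.08 for Ntrk2, -0.0012 to 0.06 for Ntrk3, -0.01 to 0.18 for Sorcs2, -0.10 to 0.01 for Batf, -0.13 to 0.63 for Aldoc, -0.24 to 0.10 for Cpe, -0.01 to 0.06 for Sorcs1, -0.01 to 0.37 for Slc1a3, -0.04 to 0.12 for Il31 and -0.03 to 0.33 for Sorl1. Of the 61 other genes named, 49 moved by over 1.5 times or across 0 in some fit with 1 array left out, 8 of them across 0; examples are Jak1 (-0.51 to -0.12), Egr1 (-0.63 to -0.15), Irak1 (-0.33 to -0.03), Psap (0.20 to 0.58) and Plat (0.15 to 0.35). The cause of these turns was not tested. Slide or scan batches were not run as a block, since the file headers give none. Ntrk3 had no value under the filter for all 6 arrays. Signal over background limits Ntrk3, Ngfr and Lifr most.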
